A study of Mus musculus with 28 samples.

Results

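A set of 35 lysosome and cathepsin genes was followed across sorted mouse CD8+ T cells from MC38-OVA tumours, in bulk libraries and in single cells. The genes form a named list selected on earlier results of these data, chiefly the high bulk level of Arsb in Tim-3+PD-1+ cells and the single-cell counts in Lyz2-positive cells, so contrasts of Tim-3+PD-1+ cells with cells lacking both receptors are given as descriptions and carry no test. All 35 genes, of 29861 gene names in the 3 count tables together, were present in each table, and all 35 passed the filter on low counts in both bulk experiments.

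All cells came from MC38-OVA tumours, a colon carcinoma line carrying ovalbumin, grown in wild-type C57BL/6 mice. The subset experiment split PD-1- CD8+ cells by surface markers. Its 3 effector-like libraries came from CD62L-Slamf7hiCX3CR1+ cells, its 5 memory-like libraries from CD62L-Slamf7hiCX3CR1- cells and its 6 naive-like libraries from CD62LhiSlamf7-CX3CR1- cells. The treatment experiment sorted double-positive cells (Tim-3+PD-1+, here DP) and double-negative cells (Tim-3-PD-1-, here DN) on day 12 after implantation, from mice given antibodies to both Tim-3 and PD-1 (blockade) or isotype control antibodies, with 3 libraries in each of the 4 groups. One single-cell library of DN cells was made under each treatment. Names of some effector-like libraries carry several numbers. A number in such a name recurs in that of another effector-like library, and numbers also recur in memory-like and naive-like names. The labels do not say whether animals were pooled or how libraries relate to animals. The tests treat libraries as independent, so p-values measure the spread between libraries, which may be technical. The date in the names of naive-like libraries is not the one in effector-like and memory-like names, and in every contrast with naive-like cells the effects of date and subset cannot be told apart.

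Lysosomes are acidic compartments in which proteases, glycosidases, sulfatases and lipases break down material delivered by endocytosis and autophagy. In cytotoxic T cells, secretory lysosomes also hold the killing machinery: cathepsin C (Ctsc) trims granzymes to their active form, the proteoglycan serglycin (Srgn) retains granule contents, and Lamp1 reaches the cell surface when granules are released. Tfeb is a transcription factor that drives many lysosomal genes by binding an E-box in the CLEAR motif near their start sites.

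The promoters of Ctsd, Arsb and Npc2, which changed in a test, and of Lamp1, which held the most E-boxes, are shown because the E-box is the sequence by which Tfeb is known to recognise its targets. RefSeq promoters (GRCm38.p6, 250 bases before to 50 after the start, 300 in all) were matched for 30 of the 35 genes, as 36 promoters. The 5 genes Asah1, Ctsb, Ctsh, Ctsw and Npc1 had no match. The palindromic core CACGTG, which reads alike on both strands, occurred in the promoters of 10 genes (Arsa, Ctsa, Ctsd, Ctsl, Gaa, Gla, Glb1, Lamp1, Lgmn and Mcoln1), that is 27.8% of the 36 promoters, against 7.15% of all 32851 promoters in the table. The longer palindrome TCACGTGA, which contains the core, occurred in Ctsa, Ctsd, Gla and Mcoln1 (11.1% of the 36 promoters, against 0.974% of all). The CLEAR element of 10 bases, which adds a G before and a C after the longer palindrome, was in 0 of the 36 and in 0.326% of all promoters. Below, capitals mark the core, and each sequence runs 5′ to 3′ on the gene's strand. They are Ctsd (chr7:142387778-142388077, minus strand, 2 cores), Lamp1 (chr8:13158911-13159210, plus strand, 4 cores), Arsb (chr13:93771429-93771728, plus strand, no core) and Npc2 (chr12:84773063-84773362, minus strand, no core).
Ctsd: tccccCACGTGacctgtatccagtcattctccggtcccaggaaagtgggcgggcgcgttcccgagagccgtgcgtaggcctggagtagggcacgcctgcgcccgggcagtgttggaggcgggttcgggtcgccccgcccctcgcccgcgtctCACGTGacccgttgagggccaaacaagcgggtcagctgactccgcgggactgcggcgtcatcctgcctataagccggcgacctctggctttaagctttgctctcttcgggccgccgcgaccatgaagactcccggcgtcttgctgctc
Lamp1: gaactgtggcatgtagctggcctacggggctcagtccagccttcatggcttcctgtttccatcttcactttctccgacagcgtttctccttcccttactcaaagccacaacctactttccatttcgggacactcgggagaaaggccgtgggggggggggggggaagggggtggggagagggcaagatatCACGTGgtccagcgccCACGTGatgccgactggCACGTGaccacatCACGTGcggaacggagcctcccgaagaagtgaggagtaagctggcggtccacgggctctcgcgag
Arsb: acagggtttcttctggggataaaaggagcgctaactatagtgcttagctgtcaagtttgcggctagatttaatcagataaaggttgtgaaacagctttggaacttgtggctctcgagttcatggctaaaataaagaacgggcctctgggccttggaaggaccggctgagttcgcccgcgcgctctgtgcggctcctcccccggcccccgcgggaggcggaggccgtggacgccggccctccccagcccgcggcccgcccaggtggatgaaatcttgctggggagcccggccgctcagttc
Npc2: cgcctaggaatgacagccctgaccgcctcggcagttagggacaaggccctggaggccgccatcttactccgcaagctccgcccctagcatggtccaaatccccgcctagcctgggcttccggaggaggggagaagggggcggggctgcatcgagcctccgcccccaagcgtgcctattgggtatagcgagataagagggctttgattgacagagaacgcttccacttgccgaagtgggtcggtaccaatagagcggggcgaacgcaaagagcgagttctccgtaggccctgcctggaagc
Of the 4 genes that passed a test below, Ctsd had the core, while Arsb, Npc2 and both matched promoters of Srgn held no CACGTG in this window. A match is a description of letters and not of binding.

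Totals of expected counts per library were 5027083 to 6785868 (effector-like), 5474437 to 6526962 (memory-like), 6688766 to 7978214 (naive-like), 9526318 to 13579278 (DP) and 8005823 to 9958977 (DN). Levels are given as CPM, counts scaled to the normalised library size. The 8 core CD8 T-cell markers were above 0 in every bulk library and summed to 3383 to 5125 CPM in the subset and 3204 to 5467 CPM in the treatment libraries. Markers of other cells stood out in some. The 9 tumour or stroma markers summed to 804 and 530.1 CPM in effector-like libraries 1 and 2 and 571 CPM in naive-like library 6, against 30.8 to 129 CPM in the other 11 subset libraries. The 13 plasmacytoid dendritic markers summed to 2221 and 2568 CPM in memory-like libraries 3 and 5, against 159 to 759 CPM in the other 12. In bulk libraries, fewer cells of a type and less RNA per cell cannot be told apart.

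**Figure D1:**
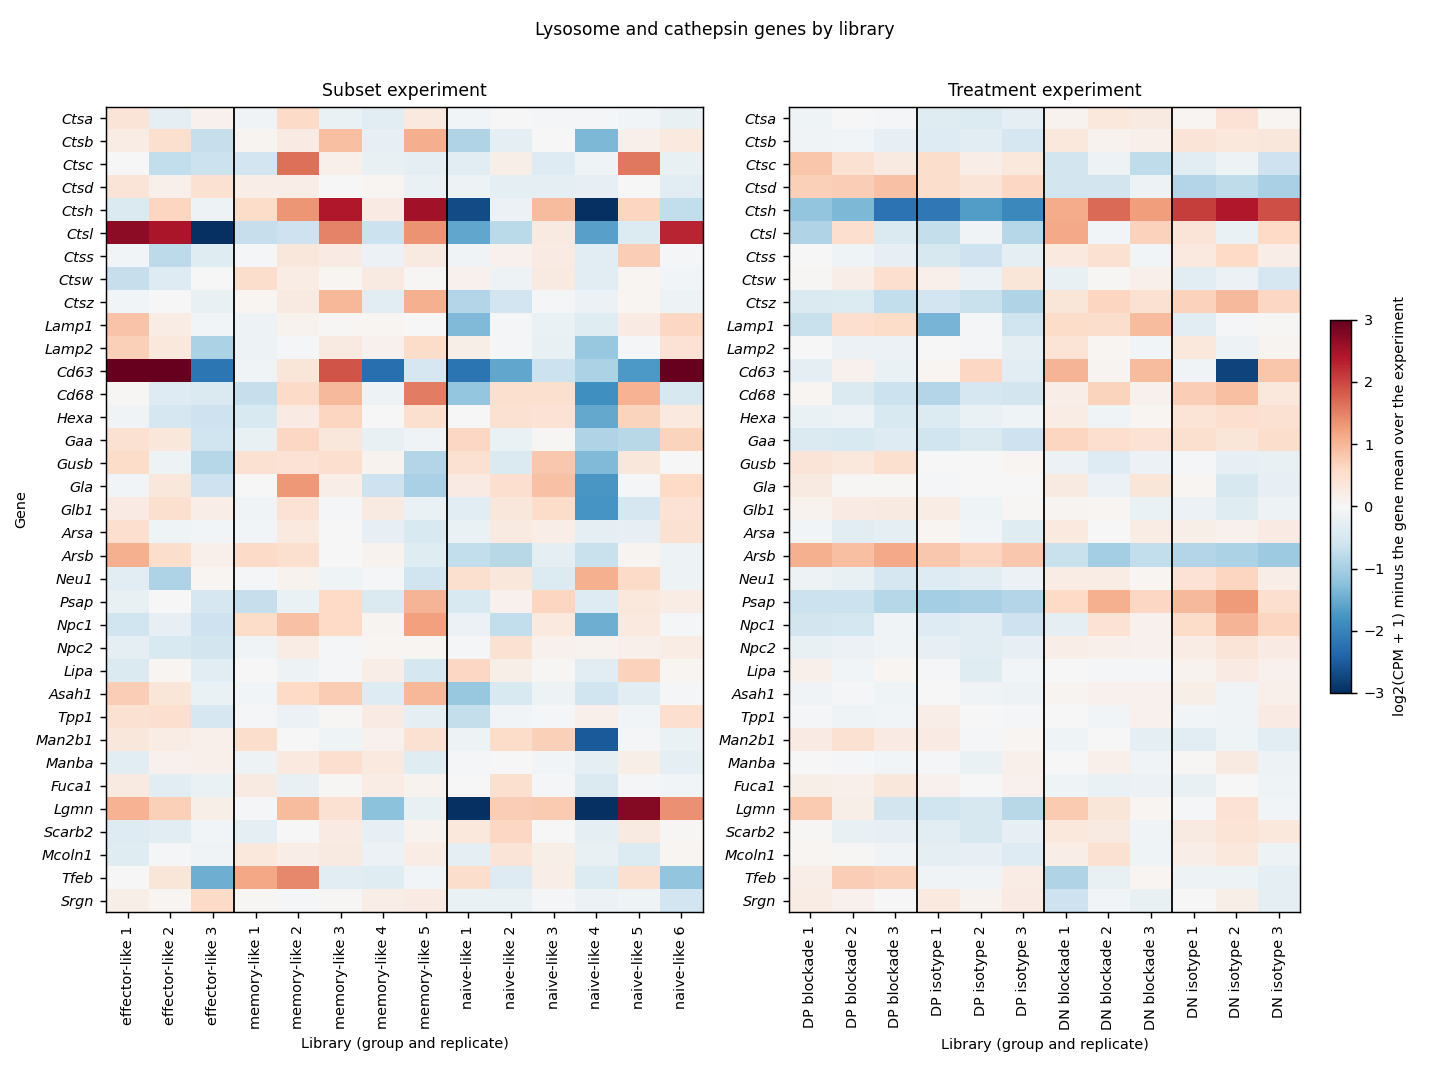
Each square is log2(CPM + 1) of a gene in a library minus the gene's mean over that experiment, with subset libraries on the left and treatment libraries on the right, and the colour scale ends at 3 either way. Ctsl and Cd63 were high in effector-like 1 and 2 and naive-like 6, Ctsh in memory-like 3 and 5, and Arsb and Ctsd in every DP library.

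In the subsets, effector-like cells had more Ctsd, Arsb and Srgn mRNA and less Npc2 mRNA than naive-like cells, and these 4 of the 35 genes were the only ones that edgeR called in any of the 6 tested comparisons. A call is an adjusted p under 0.05 in edgeR's quasi-likelihood test with Benjamini-Hochberg adjustment over all 12388 genes. The 3 genes that rose and the 1 that fell stand beside a background of 2.62% of all genes called higher and 3.79% called lower (6.42% in all). The median log2 fold change of the 35 genes was 0.07, against 0.04 for all genes tested, with 18 positive and 17 negative.

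Ctsd, the main aspartic protease of the lysosome, was at 889.7, 755 and 924 CPM in effector-like libraries. In memory-like libraries it was at 772, 782, 666, 699 and 589 CPM, and in naive-like libraries between 544 and 685 CPM with a median of 564 CPM. Every effector-like library lay above every naive-like library, with a log2 fold change of 0.55 ± 0.11 (SE; edgeR adjusted p = 0.00643). Arsb, the sulfatase that removes sulfate groups from dermatan and chondroitin sulfate, was at 129, 89.00 and 68.5 CPM in effector-like libraries. Memory-like libraries had 92.2, 85.3, 61.5, 66.4 and 47.3 CPM, and naive-like libraries lay between 33.98 and 64.8 CPM with a median of 44.3 CPM. The effector-like and naive-like groups did not overlap, and the log2 fold change was 1.04 ± 0.26 (edgeR adjusted p = 0.0211).

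Srgn, whose protein carries chondroitin sulfate chains and packs granules, was at 846, 776 and 1109.7 CPM in effector-like libraries. Memory-like libraries had 762, 727, 763, 861 and 883 CPM, and naive-like libraries lay between 503 and 717 CPM with a median of 656 CPM. Effector-like libraries were all above naive-like ones, with a log2 fold change of 0.50 ± 0.13 (edgeR adjusted p = 0.0244). Npc2, the soluble protein that hands cholesterol to Npc1 for export, went the other way, at 323, 285 and 268 CPM in effector-like libraries. It was at 363, 459, 384, 408 and 407 CPM in memory-like libraries and between 376 and 539 CPM with a median of 434 CPM in naive-like libraries. All effector-like libraries were below all libraries of both other subsets, and Npc2 fell by 0.61 ± 0.12 on the log2 scale against naive-like cells (edgeR adjusted p = 0.00573).

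Ctsd and Npc2 passed whichever single library was left out. Arsb had an adjusted p of 0.186 without effector-like library 1 and 0.0572 without library 2, and Srgn had 0.0504 without library 1 and 0.166 without library 3, where its log2 fold change was 0.34. The conventional dendritic markers, of which 10 of 11 were tested, summed to 2292, 735 and 1018 CPM in effector-like libraries, 287 to 1113 CPM in memory-like and 5.06 to 780.3 CPM in naive-like libraries. All 10 had a positive log2 fold change against naive-like cells (median 2.33) and 2 were called higher (2.62% of all genes). Effector-like library 1 was the highest of its group for this sum, for the tumour or stroma and myeloid sums, and for Arsb. Library 3 had more of the dendritic sum than library 2 but less Arsb (68.5 against 89.00 CPM). The ribosomal gene Rn45s took 10.7 to 14.1% of an effector-like library's counts, 12.6 to 17.4% of a memory-like and 17.8 to 20.7% of a naive-like library's. With Rn45s left out of counts and library sizes the same 4 genes were called, while the part of the dendritic cells in the 4 differences was not tested. Without the 3 libraries of high tumour or stroma sums, an alternative added after seeing the data that leaves 1 effector-like library and assumes it varies like the others, Srgn passed (edgeR adjusted p = 0.0127), while Ctsd (log2 0.63), Arsb (log2 0.61) and Npc2 (log2 -0.72) had adjusted p of 0.0853, 0.656 and 0.105.

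**Figure D2:**
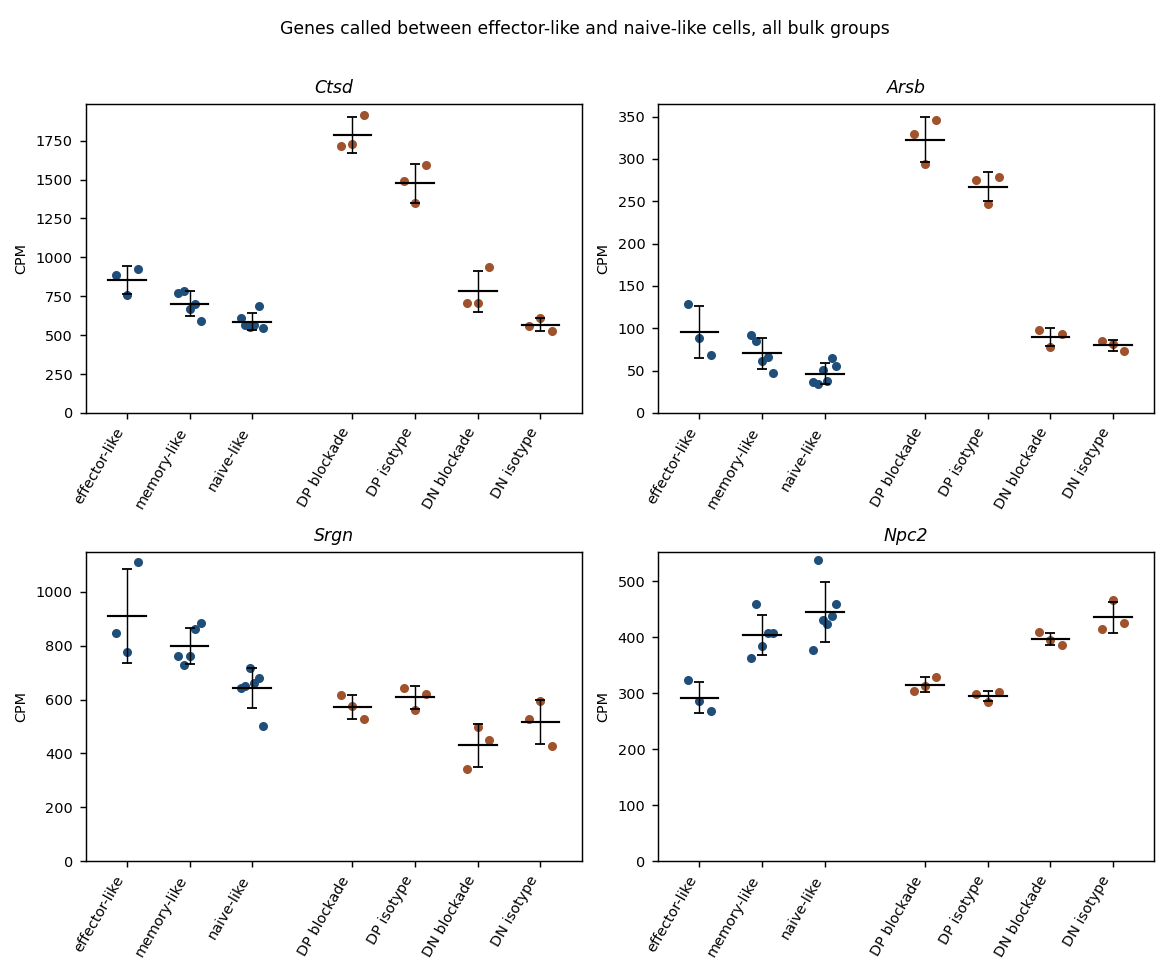
CPM of the 4 called genes in each bulk library (points), with the group mean (line) and SD (bar), subset groups in blue and treatment groups in brown. Effector-like libraries lie above naive-like libraries for Ctsd, Arsb and Srgn and below them for Npc2, and the DP libraries are highest for Ctsd and Arsb.

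Between effector-like and memory-like cells no lysosome or cathepsin gene was called by edgeR, against 1.91% of all genes (0.484% called higher and 1.43% called lower). Of the 35, 5 had an unadjusted p under 0.05, and the share of all genes at that p is not given. DESeq2 called 494 of the 12388 genes, among them 3 of the 35. These 3 were all lower in effector-like cells: Ctsw, Npc1 and Npc2. Npc2 came nearest (log2 -0.47 ± 0.12, edgeR adjusted p = 0.0751). Ctsw, a cysteine protease found mainly in cytotoxic lymphocytes, was at 289, 356 and 472 CPM in effector-like libraries, against 672, 546, 487, 561 and 476 CPM in memory-like libraries. All 3 effector-like libraries were lower (log2 -0.56 ± 0.17, edgeR adjusted p = 0.145). Naive-like libraries lay between 368 and 559.9 CPM with a median of 465 CPM, overlapping both other subsets. Npc1, the membrane protein that exports cholesterol from lysosomes, was at 15.1, 19.4 and 14.6 CPM in effector-like libraries and 34.3, 43.2, 35.6, 24.7 and 55.8 CPM in memory-like libraries, which did not overlap (log2 -1.24 ± 0.40, edgeR adjusted p = 0.164). The highest memory-like value was in library 5, one of the 2 with high plasmacytoid dendritic sums. The part of those cells in the difference was not tested. Leaving out effector-like library 3 brought Ctsw to a call, leaving out naive-like library 2 did so for Npc2, and leaving out naive-like library 4 for Npc1.

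Between memory-like and naive-like cells edgeR called 0 of the 35 genes, against 5.51% of all genes (2.78% called higher and 2.73% called lower). Of the 35, 8 had an unadjusted p under 0.05, again without a share of all genes. DESeq2 called 1204 of the 12388 genes, among them 5 of the 35. These 5 were all higher in memory-like cells: Ctsd, Ctsz, Npc1, Asah1 and Srgn. Asah1, the acid ceramidase, was nearest to a call, with 61.8, 101, 113, 50.5 and 132 CPM in memory-like libraries, against a range of 29.2 to 62.8 CPM in naive-like libraries (log2 0.91 ± 0.26, edgeR adjusted p = 0.0557). Memory-like libraries 1 and 4 lay inside the naive-like range. Asah1 passed when memory-like library 4 or naive-like library 6 was left out, and Ctsz, the carboxypeptidase cathepsin Z, passed without memory-like library 4. For Srgn the memory-like and naive-like libraries did not overlap (log2 0.32 ± 0.11, edgeR adjusted p = 0.112). Arsb was 0.60 higher on the log2 scale in memory-like cells (SE 0.23, edgeR adjusted p = 0.140).

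Lamp1 and Tfeb were called in no comparison of the subsets. Lamp1, the abundant glycoprotein of the lysosomal membrane, was at 162, 103 and 84.1 CPM in effector-like libraries and 80.5, 95.8, 90.4, 92.7 and 89.7 CPM in memory-like libraries. Naive-like libraries lay between 35.04 and 137 CPM with a median of 81.7 CPM. The memory-like values were close together, while the other subsets spread over them. Tfeb was low throughout, at 4.46, 5.99 and 0.976 CPM in effector-like and 11.2, 13.8, 3.34, 3.22 and 4.12 CPM in memory-like libraries. In naive-like libraries it lay between 1.40 and 6.86 CPM with a median of 4.21 CPM, and all 3 groups overlapped.

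The 35 genes varied unequally within groups. In naive-like libraries the steadiest were Ctsa, a carboxypeptidase that also protects Neu1 and Glb1, with an SD of 0.07 on the log2 CPM scale, Ctsd with 0.12 and Npc2 with 0.17. The median SD of all genes was 0.55. The most variable were Lgmn, an endopeptidase that cuts after asparagine, with 3.49, Ctsh, an aminopeptidase, with 2.90, and Cd63, a tetraspanin of lysosomes and granules, with 2.04. Lgmn ran from 0 to 96.2 CPM across naive-like libraries and Ctsh from 0 to 64.2 CPM.

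Several of the variable genes moved with markers of other cells, library by library. Ctsl, an endopeptidase, was at 718, 609.9 and 5.47 CPM in effector-like libraries, 67.9, 72.1, 313, 71.05 and 282 CPM in memory-like libraries and 37.2, 62.8, 134, 35.2, 82.9 and 543 CPM in naive-like libraries. Its 3 highest values were in effector-like 1 and 2 and naive-like 6. Cd63 was at 197, 241 and 3.90 CPM in effector-like and 19.3, 27.4, 79.9, 3.58 and 14.5 CPM in memory-like libraries, and at 3.80, 6.49, 12.97, 10.3, 5.70 and 203 CPM in naive-like libraries, highest in the same 3. Krt8, a keratin of epithelial cells, was at 129.7, 225 and 205 CPM in these 3 libraries and at most 50.03 CPM in the other 11. Without naive-like library 6, Cd63 was called higher in effector-like than in naive-like cells (log2 4.24, edgeR adjusted p = 0.0114). Effector-like library 3, with a tumour or stroma sum of 30.8 CPM, held 3.90 CPM of Cd63, within the range of the other 5 naive-like libraries. In the treatment experiment the tumour or stroma sums were 312 to 606 CPM in DP and 201 to 1507 CPM in DN libraries. The lowest was in DN isotype library 2, where Cd63 was at 15.9 CPM, against 106 and 203 CPM in DN isotype 1 and 3.

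Ctsh was at 48.4, 83.3, 178, 38.8 and 194 CPM in memory-like libraries and Psap, the precursor of the saposins that help degrade sphingolipids, at 183, 258, 451, 220.1 and 604 CPM. Both were highest in memory-like 3 and 5, as were Ctsb, an endo- and exopeptidase (445, 501, 792, 359 and 904 CPM), Ctsz (109, 127, 209.9, 82.1 and 222 CPM) and Cd68 (12.9, 32.01, 42.95, 19.1 and 63.5 CPM), a membrane protein typical of macrophages. Siglech, a marker of plasmacytoid dendritic cells, was at 65.7, 17.7, 377, 56.2 and 416 CPM in memory-like libraries, also highest in 3 and 5. Ctsc stood out in 2 other libraries, at 379 CPM in memory-like 2 and 364 CPM in naive-like 5. The 17 measured myeloid markers summed to 1244 and 1275 CPM there, the 2 highest of the 14 sums, and Lyz2 was at 392 and 641 CPM. Naive-like 2 and 3 also had Lyz2, at 376 and 464 CPM, with Ctsc at 137 and 92.3 CPM. Lyz2, which encodes lysozyme of myeloid cells, was at 0 in 2 effector-like, 4 memory-like and 1 naive-like libraries. Ctsl, at 313 and 282 CPM in memory-like 3 and 5, was also above the other 3 memory-like libraries. The part of these other cells in the values was not tested.

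**Figure D3:**
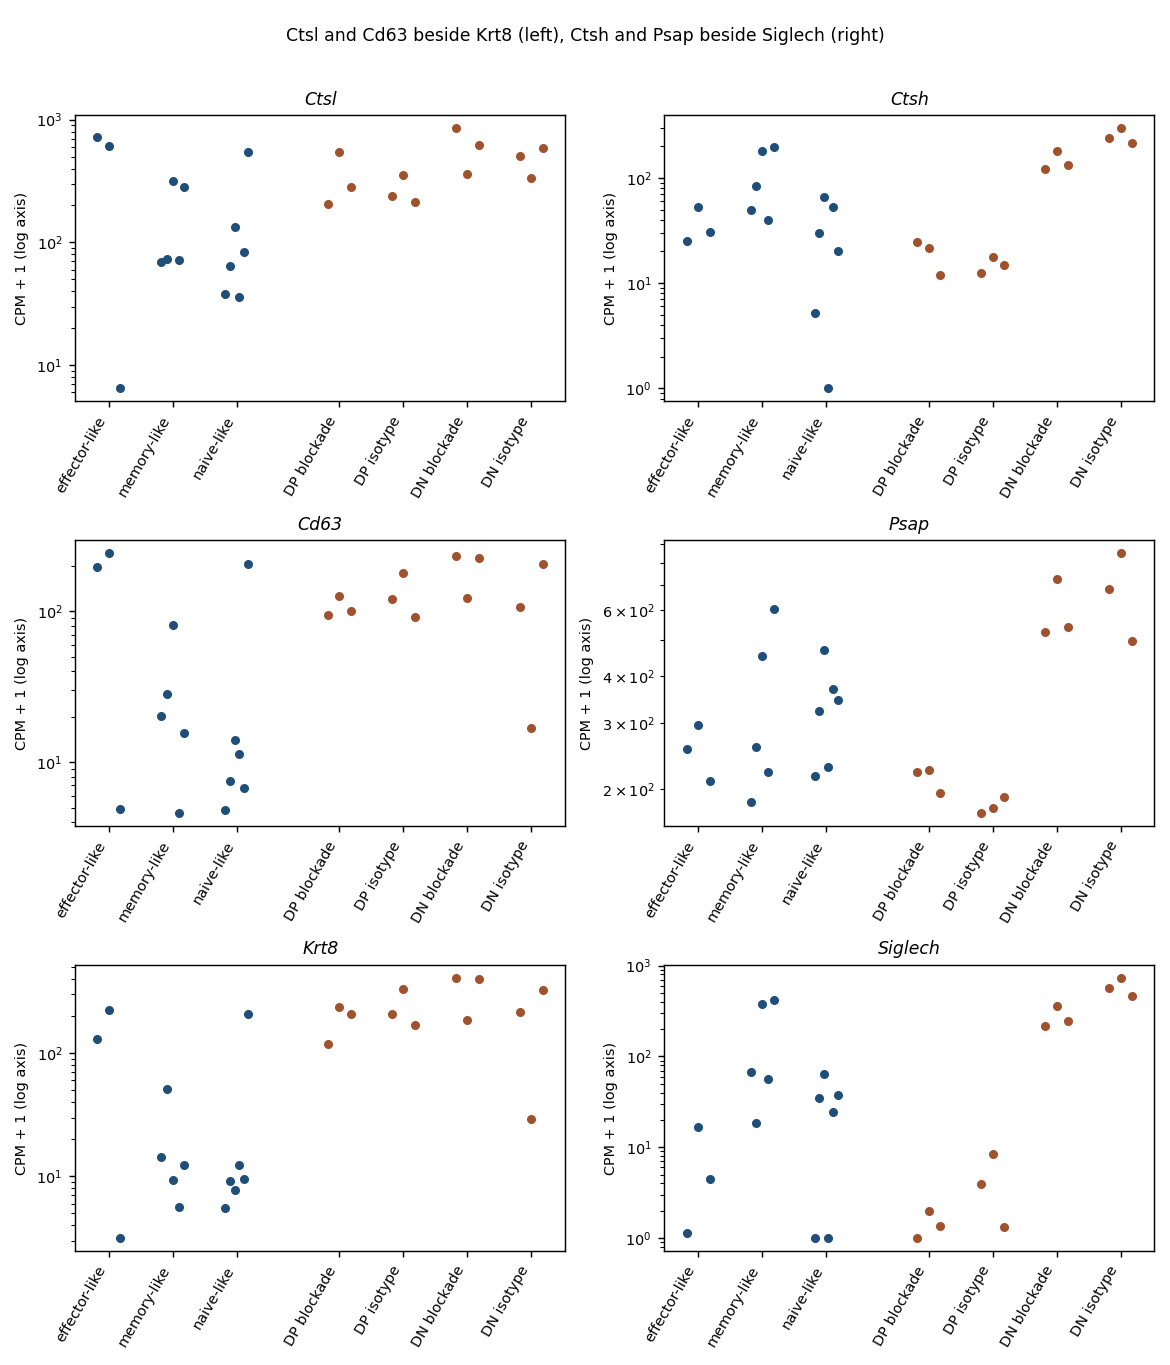
CPM + 1 on a log axis in every bulk library, with Ctsl, Cd63 and the keratin gene Krt8 on the left and Ctsh, Psap and the plasmacytoid dendritic marker Siglech on the right. In the subset experiment the 3 libraries high in Krt8 are the 3 highest in Ctsl and Cd63, and in the treatment experiment Ctsh, Psap and Siglech are higher in all 6 DN than in all 6 DP libraries.

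Blockade of Tim-3 and PD-1 gave no call among the 35 genes in DN cells, DP cells or in the difference between them. Of all 12710 genes, 1.12% were called in DN cells (0.519% higher and 0.598% lower under blockade), 0.0629% in DP cells (0.00787% higher and 0.0551% lower) and 0% in the difference. In DN cells 5 of the 35 had an unadjusted p under 0.05. DESeq2 called 3 of the 35 there (Ctsd higher, Ctsh and Npc1 lower under blockade), beside 541 of all 12710 genes. In DP cells 8 had an unadjusted p under 0.05, and DESeq2 called 0 of the 35 and 63 of all genes. In the difference 6 had an unadjusted p under 0.05, and DESeq2 called 2 of the 35 and 113 of all genes. The 2 were Ctsb and Ctsh, whose blockade effect was higher in DP than in DN cells. For the unadjusted p the share of all genes is not given. Blood markers also differed by treatment: the 5 summed to 0.253 to 118 CPM in DN blockade and 2708 to 5310.1 CPM in DN isotype libraries, and to 0.470 to 14.1 CPM in DP blockade and 1403 to 3286 CPM in DP isotype libraries. Their part in the values below was not tested.

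Ctsd was at 708, 704 and 935 CPM in DN blockade libraries, against 560.1, 613 and 528 CPM in DN isotype libraries. In DP cells it was at 1713, 1726 and 1917 CPM under blockade and 1487, 1346 and 1590.1 CPM under isotype. Every blockade library lay above every isotype library in both populations, with log2 fold changes of 0.46 ± 0.12 in DN (edgeR adjusted p = 0.0751) and 0.28 ± 0.12 in DP cells (edgeR adjusted p = 0.669). Lamp1 was at 48.3, 47.7 and 64.2 CPM in DN blockade and 26.1, 31.5 and 33.5 CPM in DN isotype libraries. In DP cells it was at 20.4, 47.4 and 48.4 CPM under blockade and 11.8, 31.4 and 21.4 CPM under isotype. The DN groups did not overlap, the DP groups did, and neither difference passed (log2 0.82 ± 0.34 in DN and 0.84 ± 0.34 in DP cells, edgeR adjusted p = 0.272 and 0.662).

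Ctsh had 121, 181 and 132 CPM in DN blockade libraries, against 236, 294 and 212 CPM in DN isotype libraries (log2 -0.78 ± 0.24, edgeR adjusted p = 0.145). Npc1 had 31.2, 51.7 and 41.8 CPM under blockade and 56.7, 79.03 and 60.6 CPM under isotype in DN cells (log2 -0.66 ± 0.20, edgeR adjusted p = 0.135). In neither gene did the DN groups overlap, and Siglech was likewise lower under blockade, at 214, 361 and 243 CPM, against 561, 725 and 459 CPM in DN isotype libraries. The part of plasmacytoid dendritic cells in these values was not tested. In DP cells 29 of the 35 genes had a positive log2 fold change under blockade, with a median of 0.19 beside -0.01 for all genes tested. The 8 core CD8 markers were likewise all positive in that comparison, with a median of 0.18. The largest was that of Lgmn, at 52.1, 34.1 and 20.03 CPM under blockade and 19.6, 21.3 and 16.2 CPM under isotype (log2 0.90 ± 0.30, edgeR adjusted p = 0.572). The myeloid marker sum was 315 to 679 CPM in DP blockade and 283 to 319 CPM in DP isotype libraries, and Lyz2 was 252, 186 and 121 CPM under blockade and 136, 112 and 108 CPM under isotype. Their part in the DP values was not tested. Gusb, the beta-glucuronidase, had the smallest adjusted p of the 35 in DP cells, with 66.5, 63.4 and 71.4 CPM under blockade and 50.3, 51.03 and 52.9 CPM under isotype (log2 0.38 ± 0.10, edgeR adjusted p = 0.388).

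Among the 35 genes Arsb and Ctsd were furthest above, and Ctsh and Psap furthest below, their DN level in DP cells. The list was drawn up with this contrast known, so the values are a description. By sign, 11 of the 35 log2 fold changes were positive and 24 negative under blockade, and 13 positive and 22 negative under isotype. The call threshold (edgeR adjusted p under 0.05) serves here as a cut for description and not as a test. Under blockade 7 genes were past the cut upward and 9 downward, beside 14.4% of all genes upward and 12.5% downward, 27% in all. Under isotype 5 were past the cut upward and 14 downward, beside 15% of all genes upward and 14.8% downward, 29.9% in all. Under both treatments 4 genes were past the cut upward (Arsb, Ctsc, Ctsd and Man2b1) and 8 downward (Cd68, Ctsb, Ctsh, Ctsz, Gaa, Neu1, Npc2 and Psap).

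Arsb was at 329, 294 and 346 CPM in DP blockade libraries, against 98.2, 77.8 and 93.6 CPM in DN blockade libraries. It was at 275, 247 and 279 CPM in DP isotype libraries, against 85.5, 81.3 and 72.96 CPM in DN isotype libraries. Every DP library lay above every DN library, with log2 fold changes of 1.84 ± 0.11 under blockade and 1.74 ± 0.11 under isotype (SE). Ctsd, whose values are given above, was 1.19 higher on the log2 scale under blockade and 1.38 under isotype, again without overlap. Ctsc was at 209.9, 161 and 141 CPM in DP blockade and 79.99, 105 and 68.4 CPM in DN blockade libraries, and at 168, 134 and 145 CPM in DP isotype and 91.8, 105 and 75.5 CPM in DN isotype libraries, with DP above DN in both pairs. Ctsc is also one of the genes that Lyz2-positive single cells carried (below), and Lyz2 was at 108 to 252 CPM in DP libraries, 14.1 to 88.7 CPM in DN blockade libraries and 1.63 to 3.68 CPM in DN isotype libraries. The sums of the 17 measured myeloid markers overlapped in both pairs. They were 315 to 679 CPM in DP blockade and 138 to 345 CPM in DN blockade libraries. Under isotype they were 283 to 319 CPM in DP and 181 to 309 CPM in DN libraries. Gene by gene, 16 of the 17 had a positive DP over DN log2 fold change under blockade and 1 a negative one (median 1.91). Under isotype 14 were positive and 3 negative (median 2.58). The part of Lyz2-positive cells in the Ctsc difference was not tested.

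Srgn was at 617, 576 and 526 CPM in DP blockade and 340.4, 498 and 450.4 CPM in DN blockade libraries. Under isotype it was at 641, 562 and 621 CPM in DP and 528, 594 and 429 CPM in DN libraries, and the DP and DN values overlapped under isotype but not under blockade. Ctsw was at 519, 582 and 719.9 CPM in DP blockade and 435, 516 and 559.8 CPM in DN blockade libraries, which overlapped. Under isotype it was at 563, 449.9 and 649 CPM in DP and 398, 449 and 357 CPM in DN libraries, without overlap. Tfeb was at 6.81, 10.3 and 9.83 CPM in DP blockade and 2.63, 4.81 and 6.04 CPM in DN blockade libraries, and at 5.29, 5.23 and 6.86 CPM in DP isotype and 5.05, 5.10 and 4.57 CPM in DN isotype libraries. DP and DN values of Tfeb did not overlap under either treatment. Npc2 was at 303, 314 and 329 CPM in DP blockade and 409.6, 394 and 387 CPM in DN blockade libraries, with 298, 284 and 302 CPM in DP isotype and 415, 467 and 425 CPM in DN isotype libraries, so that it was lower in every DP than in every DN library.

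The widest difference was that of Ctsh, at 23.7, 20.8 and 10.9 CPM in DP blockade and 121, 181 and 132 CPM in DN blockade libraries, and 11.6, 16.6 and 13.7 CPM in DP isotype and 236, 294 and 212 CPM in DN isotype libraries. Its log2 fold change was -2.96 under blockade and -4.14 under isotype. Psap followed, at 193 to 223 CPM in DP blockade and 525 to 728 CPM in DN blockade libraries, and 171 to 189 CPM in DP isotype and 496 to 850.5 CPM in DN isotype libraries. Ctsz (log2 -1.03 under blockade and -1.49 under isotype), Cd68 (-0.69 and -1.35) and Gaa, the glucosidase that degrades lysosomal glycogen (-0.96 and -1.02), were lower under both. Plasmacytoid dendritic markers moved with these genes: their sum was 512 to 753 CPM in DP and 1480.0 to 3667 CPM in DN libraries. Siglech itself was at 0 to 7.45 CPM in the 6 DP libraries and 214 to 725 CPM in the 6 DN libraries. Their part in the DP and DN values was not tested.

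**Figure D4:**
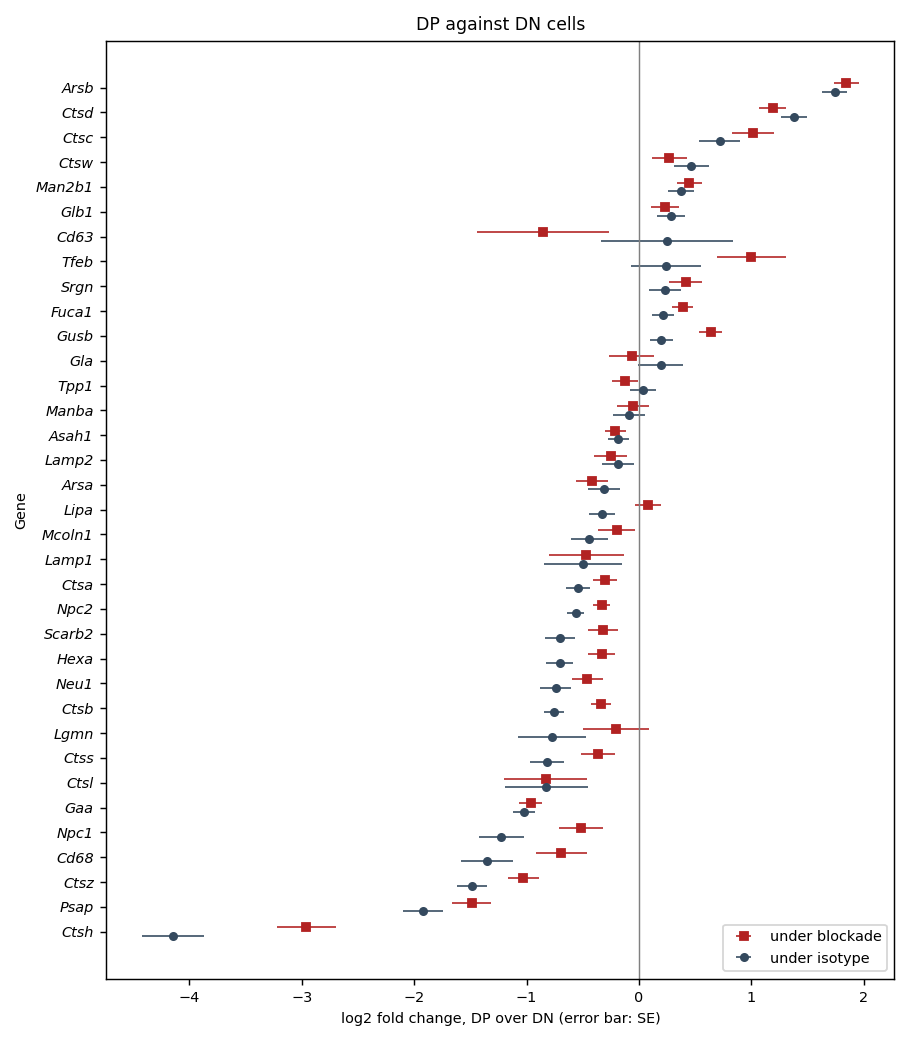
Log2 fold change of DP over DN cells (horizontal axis) for each of the 35 genes, under blockade (squares) and isotype (circles), with the standard error as bars. Arsb and Ctsd lie furthest to the right under both treatments and Ctsh furthest to the left.

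The remaining genes were called in no tested comparison, and their ranges are given by role. Among glycosidases, Hexa, a subunit of beta-hexosaminidase, was at 35.9 to 51.8 CPM in effector-like and 18.8 to 90.5 CPM in naive-like libraries (log2 -0.61 ± 0.37). Gla, the alpha-galactosidase, was at 6.83 to 14.3 CPM in effector-like and 2.61 to 21.3 CPM in naive-like libraries (log2 -0.36 ± 0.60). Glb1, the beta-galactosidase, was at 44.3 to 53.7 CPM in effector-like and 10.6 to 56.4 CPM in naive-like libraries (log2 0.35 ± 0.37). The effector-like and naive-like ranges of these 3 glycosidases overlapped. The mannosidases Man2b1 and Manba had log2 fold changes of 0.24 ± 0.42 and 0.08 ± 0.24, the fucosidase Fuca1 of -0.07 ± 0.21 and the glucosidase Gaa of 0.11 ± 0.36, each with overlap between effector-like and naive-like libraries. Gusb, the beta-glucuronidase, was at 15.8 to 43.7 CPM in effector-like and 11.3 to 52.3 CPM in naive-like libraries (log2 -0.17 ± 0.44). Neu1, the sialidase, was at 31.2 to 62.5 CPM in effector-like and 44.5 to 127 CPM in naive-like libraries (log2 -0.75 ± 0.30). Arsa, the sulfatase of sulfatides, was at 21.4 to 33.7 CPM in effector-like and 19.3 to 32.5 CPM in naive-like libraries (log2 0.07 ± 0.27). Effector-like and naive-like libraries overlapped for these 3 genes.

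Among proteases, Ctsa was at 173 to 272 CPM in effector-like and 179.7 to 208 CPM in naive-like libraries (log2 0.18 ± 0.18). Ctss, an endopeptidase that also works at near-neutral pH, was at 144 to 235 CPM in effector-like and 199.9 to 414 CPM in naive-like libraries (log2 -0.53 ± 0.22). Tpp1, a tripeptidyl peptidase, was at 38.8 to 79.4 CPM in effector-like and 33.7 to 78.9 CPM in naive-like libraries (log2 0.23 ± 0.25). Effector-like and naive-like libraries overlapped for each. Lipa, the acid lipase, was at 43.7 to 61.4 CPM in effector-like and 46.3 to 95.6 CPM in naive-like libraries (log2 -0.48 ± 0.24). Among membrane proteins, Lamp2, a partner of Lamp1, was at 57.00 to 183 CPM in effector-like and 49.8 to 150.1 CPM in naive-like libraries (log2 0.25 ± 0.32). Scarb2, a membrane glycoprotein of lysosomes, was at 50.1 to 61.7 CPM in effector-like and 52.9 to 101 CPM in naive-like libraries (log2 -0.44 ± 0.20). Effector-like and naive-like libraries overlapped for these 3 as well, and for Mcoln1, a calcium channel, at 23.6 to 29.6 CPM in effector-like and 22.97 to 40.5 CPM in naive-like libraries (log2 -0.15 ± 0.22). Under blockade in DN cells, Hexa (log2 -0.40 ± 0.12, edgeR adjusted p = 0.145) and Lipa (-0.20 ± 0.11) were lower in every blockade than in every isotype library. So was Npc2 (-0.13 ± 0.08), narrowly, with at most 409.6 CPM under blockade and at least 415 CPM under isotype. For these and the other statements of overlap, the share of all genes without overlap is not given.

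Other lysosomal genes were counted by role in the same comparisons. Effector-like against naive-like cells gave calls for 0 of 16 tested V-ATPase subunits and 0 of 6 other cathepsins and cystatins, 2 of 20 membrane proteins and transporters, 2 of 11 sorting genes and 2 of 15 CLEAR regulators and mTORC1 genes, where 6.42% of all genes were called. Gnptab, which encodes subunits of the enzyme that makes the mannose 6-phosphate tag for lysosomal sorting, was at 70.6, 72.8 and 95.6 CPM in effector-like libraries and 8.96 to 38.7 CPM in naive-like libraries (log2 1.56 ± 0.33, edgeR adjusted p = 0.00929). Its partner subunit Gnptg also rose (log2 0.59 ± 0.15, edgeR adjusted p = 0.0265). Laptm5, a lysosomal membrane protein of blood cells (log2 0.55), and Lamtor5, a part of the Ragulator complex (0.82), were called higher. Mcoln2, an endolysosomal channel (log2 -2.07), Acp5, an acid phosphatase (-0.73), and Flcn, folliculin (-0.90), were called lower.

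Acp5 was lower in 3 comparisons. It was at 82.8, 89.9 and 122 CPM in effector-like and 95.1, 106, 92.1, 90.7 and 83.00 CPM in memory-like libraries, against 131 to 185 CPM in naive-like libraries (log2 -0.73 and -0.80, edgeR adjusted p = 0.0101 and 0.00286). It was at 87.5, 88.1 and 71.4 CPM in DN blockade libraries, against 179, 161 and 142 CPM in DN isotype libraries, with no overlap (log2 -0.97 ± 0.17, edgeR adjusted p = 0.0249). Memory-like against naive-like cells also gave Flcn and Rraga lower (log2 -0.82 and -1.22). Of cytotoxic granule genes, 9 of 17 were higher in effector-like than in naive-like cells (2.62% of all genes), 8 of 17 in memory-like than in naive-like cells (2.78%) and 3 of 17 (Gzma, Fasl and Prf1) in effector-like cells against memory-like ones (0.484%). In DN cells under blockade 3 of 17 were higher (Prf1, Stx11 and Gzmk; 0.519% of all genes), and 0 of the 17 were lower in these 4 comparisons. In DP cells under blockade 0 genes of these lists were called.

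In single cells the number at the end of each barcode was read as the library number given in the labels (suffix 2 as blockade, suffix 1 as isotype), which is the only link between cells and treatments. UMIs are counted molecules, and cells had to have 500 or more genes and no more than 10% of UMIs from mitochondrial genes. By these filters 2502 blockade and 2950 isotype cells remained, with 12399243 and 12390885 UMIs and medians of 3839.5 and 3652 UMIs per cell. The libraries shared 7 barcodes. No doublet caller was run. With 1 library per treatment there is no test, and the 95% intervals cover counting error only.

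Cells with at least 1 Lyz2 UMI were more frequent under blockade, 80 cells (3.20%, exact 95% interval 2.54 to 3.96%), against 17 cells (0.576%, 0.336 to 0.921%) under isotype. Thinned to 2000 UMIs per cell, leaving out 0 blockade and 251 isotype cells, the shares were 2.36% and 0.371%. Cells with at least 10 Lyz2 UMIs numbered 36 under blockade and 2 under isotype. Lyz2-positive cells held 7.31% of blockade and 1.14% of isotype UMIs, and 60 of 80 blockade and 17 of 17 isotype Lyz2-positive cells also had a Cd3 or Cd8 UMI. Median depth was 5537.5 UMIs in Lyz2-positive and 3818.5 in Lyz2-negative blockade cells. Free RNA and doublets can give a Lyz2 UMI to a cell that does not express it, and their part was not tested. Siglech had no UMI in any of the 2502 blockade or 2950 isotype cells, which allows a share of up to 0.120% and 0.102% of cells with a UMI. The 13 plasmacytoid dendritic markers together summed to 654 CPM in Lyz2-positive and 229 CPM in Lyz2-negative blockade cells, and to 149 CPM in Lyz2-positive and 163 CPM in Lyz2-negative isotype cells. Myeloid markers besides Lyz2 summed to 5659 and 29.9 CPM in Lyz2-positive and Lyz2-negative blockade cells, and to 3811 and 14.8 CPM in isotype cells. In the same order, conventional dendritic markers summed to 6530 and 547 CPM (blockade) and 538 and 357 CPM (isotype). Core CD8 T-cell markers summed to 1567 and 5968 CPM (blockade) and 2175 and 5258 CPM (isotype).

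Of the 35 genes, 7 were carried by Lyz2-positive cells, meaning that their CPM there was at least 4 times that in Lyz2-negative cells in both libraries, with at least 10 UMIs in such cells, a count that 33 reached. The 7 were Lgmn, Cd68, Ctsh, Ctsc, Ctsz, Ctsl and Asah1. Of all genes so measured, 6.09% met this rule. The list was drawn up with counts in Lyz2-positive cells known, so the numbers of carried genes are a description. The number depended on the setting, with 14 genes for cells of at least 3 Lyz2 UMIs, 13 for cells of at least 10 and 17 at a ratio of at least 2. For these settings the share of all genes was not computed, and the 6.09% does not apply to them. The Lyz2-positive cells also included keratin-positive cells (described below), 3 under blockade and 1 under isotype, and the 9 tumour or stroma markers summed to 1437 CPM in Lyz2-positive and 239 CPM in Lyz2-negative blockade cells, and to 956 and 267 CPM in Lyz2-positive and Lyz2-negative isotype cells. Without the keratin-positive cells, an alternative added after seeing the data, 12 genes met the rule, the same 7 with Cd63, Ctsb, Ctss, Hexa and Psap, against 6.86% of all genes. Lyz2-positive cells held 82.3% (95% interval 79.6 to 84.7%) of Lgmn UMIs under blockade and 29.1% (95% interval 20.8 to 38.5%) under isotype. For Cd68 the shares were 57.03% (95% interval 53.1 to 60.9%) under blockade and 19.3% (95% interval 12.7 to 27.6%) under isotype. Ctsh had 62.2% under blockade and 9.14% under isotype, and Ctsc 58.2% under blockade and 13.4% under isotype. Ctsz, Ctsl and Asah1 had 34.8%, 32.2% and 27.98% under blockade and 5.55%, 5.02% and 4.49% under isotype.

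Ctsb, Ctss and Psap came close, with ratios of 9.05, 9.61 and 8.32 under blockade and 3.42, 3.74 and 3.14 under isotype. At the other end, Ctsw was lower in Lyz2-positive cells, at 116 CPM in Lyz2-positive and 421 CPM in Lyz2-negative blockade cells, and 128 and 317 CPM in isotype cells. Over both libraries Arsb had 10 of its 363 UMIs in Lyz2-positive cells, a share of 2.75% (interval 1.33 to 5.01%). Lyz2-positive cells held 4.23% of all UMIs, so this share does not set Arsb apart from a gene spread evenly over cells. Both libraries are of DN cells, and the part of Lyz2-positive cells in the Arsb level of DP cells was not tested. Ctsd had 10.3% of its UMIs in Lyz2-positive cells under blockade and 1.99% under isotype, and Srgn 11.2% under blockade and 1.43% under isotype.

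**Figure D5:**
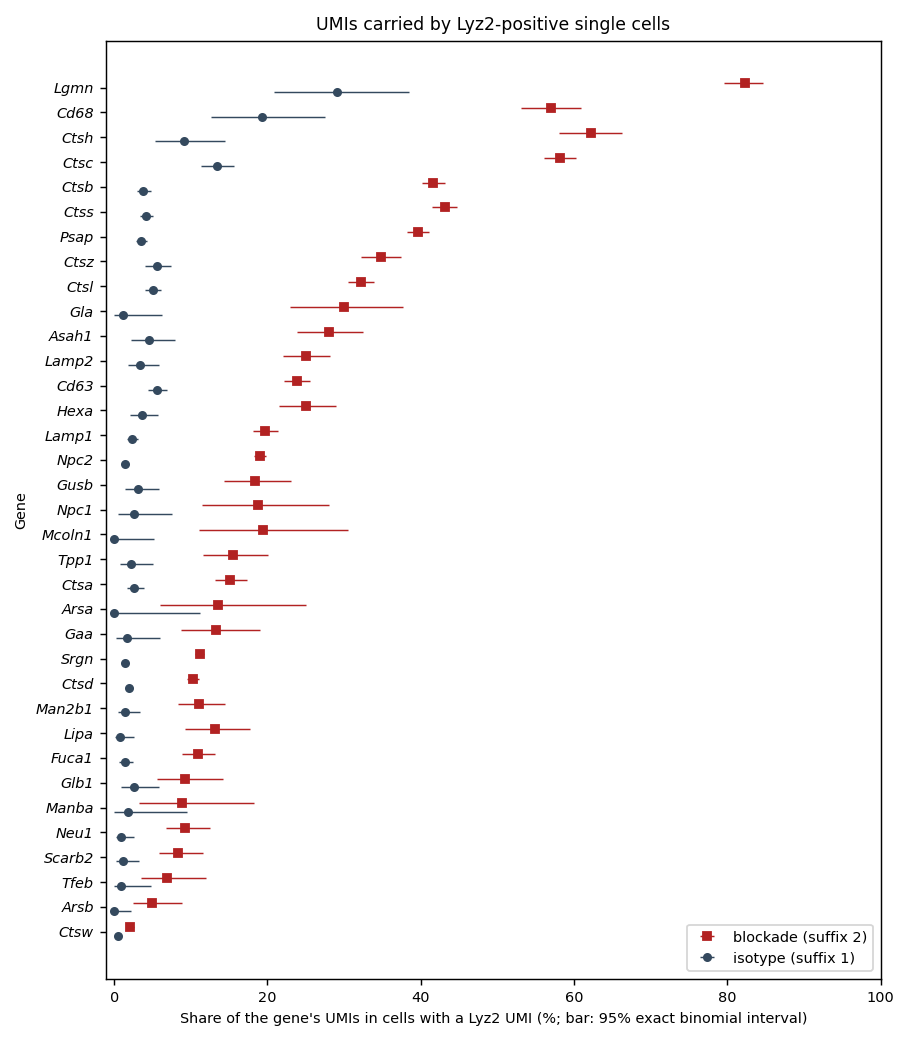
Share of each gene's UMIs found in cells with a Lyz2 UMI (horizontal axis, percent), under blockade (squares) and isotype (circles), with exact binomial 95% intervals, ordered by the share over both libraries. Lgmn is at the top with 82.3% under blockade and 29.1% under isotype, and Ctsw at the bottom with 2.12% under blockade and 0.462% under isotype.

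Keratin-positive cells, a class chosen after the values were seen (at least 3 Krt8 and Krt18 UMIs together), were 25 blockade and 30 isotype cells with a median of 32301 UMIs. They held 11.7% of blockade and 7.32% of isotype UMIs, 9.52% over both libraries. Over both libraries they held 91.04% of Cd63 and 79.2% of Ctsl UMIs, 47.8% of Arsa, 31.7% of Gaa and 26.9% of Ctsb. They held 3.31% of Arsb, 0.238% of Ctsw and 0.193% of Srgn UMIs. Ctsl and Cd63 were also the genes that followed Krt8 across the bulk subset libraries.

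Between the single-cell libraries 17 of the 35 genes had at least 1.5 times as many CPM under blockade and 0 had as much less, where 17.3% of all 9994 genes were past that fold upward and 4.21% downward (21.5% in all). The median log2 ratio was 0.55, against 0.16 for all genes. In cells with a Cd3 or Cd8 UMI and no Lyz2 UMI, an alternative added after seeing the data, 9 of the 35 stayed past it (Arsa, Asah1, Cd63, Cd68, Ctsb, Ctsd, Lamp2, Lgmn and Srgn), against 15.2% of all genes upward, and 0 were past it downward (4.17% of all genes). That class still held 15 keratin-positive cells under blockade and 17 under isotype. Leaving them out as well, also after seeing the data, kept 2392 blockade and 2899 isotype cells, in which 6 genes were past it upward (Cd63, Cd68, Ctsd, Lamp2, Lgmn and Srgn), against 13.2% of all genes, and 0 downward (5.12% of all genes). Of these 6, Cd63 rested on 80 blockade and 40 isotype UMIs and Lgmn on 57 and 42, and Arsa no longer had the 50 UMIs required. Ctsd was at 444 CPM (interval 432 to 456) under blockade and 271 CPM (interval 262 to 281) under isotype, a ratio of 1.64, and of 1.65 in the cells with a Cd3 or Cd8 UMI, no Lyz2 UMI and under 3 keratin UMIs. Lamp2 had a ratio of 2.30 in all cells and 1.99 in that narrower class. Srgn had 1015 CPM (interval 997 to 1033) under blockade and 576 CPM (interval 563 to 589) under isotype, a ratio of 1.76, and of 1.76 in the narrower class. Ctsl had 1.64 in all cells and 1.10 there.

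Ctsc, Ctsh and Ctss lost most of their difference outside the Lyz2-positive cells. Their ratios were 2.22, 3.13 and 1.68 in all cells and 1.14, 1.39 and 1.06 in Lyz2-negative cells. Lgmn had a ratio of 8.09 in all and 2.16 in Lyz2-negative cells, and Cd68 5.43 and 3.09. Arsb was at 16.3 CPM (interval 14.1 to 18.7) under blockade and 12.99 CPM (interval 11.1 to 15.2) under isotype. Bulk DN libraries gave the same direction as the single cells for Ctsd (log2 0.46) and Arsb (0.17) and the opposite for Srgn (-0.27), Ctsh (-0.78) and Cd68 (-0.32), none of them called.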

How the data were processed

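Per the labels, about 2000 sorted cells went into each bulk library by a version of SMART-Seq2, and droplets were used for single cells. The authors deposited expected counts (22.6% and 30.5% not whole numbers in the subset and treatment tables) and UMI counts. The submitters' processing notes name TopHat, RSEM, DESeq and mm9 for bulk and Cell Ranger 1.3 and mm10 for single cells. Expected counts were rounded, filtered (filterByExpr) and tested with edgeR 4.0.16 (TMM, quasi-likelihood, 1 fit per experiment, Benjamini-Hochberg over 12388 and 12710 genes), checked on simulated data. SE is the log2 fold change divided by the square root of F. DESeq2 1.42.0 was the alternative test. For the subsets, 4 entries with a repeated gene name were left out. No replicate block was used. Matched by replicate numbers in the titles, every pair of DN blockade and DN isotype libraries had a correlation of deviations over 0.1 (0.122 to 0.383). In no other groups did every pair. These DN groups differ in treatment and their library names share no number, so the correlations do not establish a pairing. Effector-like names share numbers with each other and with both other subsets, and were not matched by them, because some hold several. Library names do share numbers between DP and DN libraries of a treatment and between memory-like and naive-like libraries, whose meaning the labels do not give. By these, correlations were 0.0612 to 0.152 (DP and DN, blockade), -0.00600 to 0.326 (DP and DN, isotype) and -0.0958 to 0.00577 (memory-like and naive-like), so that not every pair was over 0.1. Single-cell UMIs were summed per library. Two-sided exact Poisson intervals (CPM) and Clopper-Pearson intervals (shares) were at 95%. The genes and lists were chosen with earlier results of these data known, and values are printed per library for genes called in a tested comparison and for Arsb, Ctsd, Ctsw, Lamp1, Srgn and Tfeb, and for others named after their values were seen. Bulk coordinates were not used, because the bulk build differs from the reference build of the promoters. One gene of the list of other hydrolases, and that list's count of calls, are not reported here.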

Additional observations from a re-analysis of the deposited data

Results flagged for a closer look

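Among 70 sets of values (a gene in a group of 4 to 10 libraries), 7 had 1 library far from the rest, by a gap that chance alone passes in about 1 of 20 sets. Of these, 4 were in naive-like library 6, the one with the high tumour or stroma sum: Ctsl at 543 CPM, against 35.2 to 134 CPM in the others, Cd63 at 203 CPM, against 3.8 to 13 CPM in the others, and Srgn at 503 CPM, against 643 to 717 CPM in the others. Ctsa was also lowest there, at 179.7 CPM, against 198 to 208 CPM in the others. Ctsc stood apart in memory-like library 2, at 379 CPM, against 80.8 to 133 CPM in the others, and in naive-like library 5, at 364 CPM, against 92.3 to 137 CPM in the others, the subset libraries with the highest myeloid marker sums. Mcoln1 was low in memory-like library 4, at 27.2 CPM, against 35.5 to 38.5 CPM in the others.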

How the results depend on the processing

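The counts of called genes in the 8 bulk contrasts and 2 single-cell counts were recomputed under 44 settings in all, and 145 of 167 recomputed counts stayed within 1.5 times the original. That total includes counts of 0 that stayed at 0, and settings that left out a library of neither group compared. It is therefore no measure of how stable a call is. No single-gene value reversed. With DESeq2, 3 genes were called between effector-like and memory-like cells, 5 between memory-like and naive-like cells, 3 in DN cells and 2 in the difference of the blockade effects, where edgeR called 0. In the same order, DESeq2 called 494, 1204, 541 and 113 of all genes, and edgeR 237, 683, 142 and 0. Leaving out 1 library at a time gave 0 to 1 calls between effector-like and memory-like, 2 to 5 between effector-like and naive-like and 0 to 2 between memory-like and naive-like cells. It gave 0 in both blockade comparisons and their difference. Between DP and DN cells, where the threshold is a cut and not a test, 12 to 18 genes were past it under blockade and 16 to 19 under isotype. The replicate block by title number left 1 call (Npc2) between effector-like and naive-like cells, where deviations of libraries with the same number did not correlate over 0.1. In DN cells, where they did, the block left the count at 0. Restricting that subset fit to the libraries of both groups left Srgn at adjusted p 0.054. Without effector-like 1 and 2 and naive-like 6, 1 gene (Srgn) was called against naive-like cells and 1 (Asah1) between memory-like and naive-like cells, and leaving out the ribosomal gene Rn45s also gave 1 (Asah1). The cause of these changes was not tested. In single cells, 6 genes passed a fold of 2, 8 passed 1.5 in cells with no Lyz2 UMI and 9 in cells with a Cd3 or Cd8 UMI and no Lyz2 UMI, and 6 when keratin-positive cells were also left out. The share of all genes was not computed for the fold of 2 or for the cells with no Lyz2 UMI. Lyz2-positive cells carried 14 genes when defined by at least 3 Lyz2 UMIs, 13 by at least 10 and 17 at a ratio of at least 2 and 12 without keratin-positive cells. Of these settings, only the one without keratin-positive cells has a share of all genes (6.86%). Only 3 effector-like libraries and 1 single-cell library per treatment limit what could be detected.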
